A study of Mus musculus with 22 samples.

Results

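The 8 smooth muscle contractile genes Acta2, Tagln, Cnn1, Myh11, Myl9, Cald1, Smtn and Mylk were described in RNA-seq counts from mouse embryonic heart ventricles. They were chosen by name, as the entries of both count tables with these mouse symbols, and each table holds all 8 of them among 48709 genes. All 8 also passed the filter for testing, a mean count above 1, which left 19752 genes in the first experiment and 17675 in the second.

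Smooth muscle contracts when myosin light chain kinase, the product of Mylk, phosphorylates the regulatory light chain encoded by Myl9 on a myosin whose heavy chain is the product of Myh11, and this myosin then pulls on filaments of smooth muscle alpha-actin, the product of Acta2. Calponin (Cnn1), caldesmon (Cald1), transgelin (Tagln) and smoothelin (Smtn) bind the actin filament, where calponin and caldesmon restrain the myosin motor. In the embryonic heart these genes are not a mark of vessel walls alone, since young cardiomyocytes pass through a stage in which they express Acta2 and Tagln, and cells derived from the epicardium express them as they form the coronary wall.

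The study asked how the LIN9 subunit of the MuvB complex, which controls cell cycle genes, and the Hippo pathway scaffold Sav1 act together in the growing heart. Polyadenylated RNA came from ventricles taken at E13.5 from C57/Bl6 mice with floxed alleles, recombined by Nkx2.5-Cre, a driver active in cardiac precursor cells. The first experiment compared LIN9 wt with LIN9 KO ventricles, and its labels name no Sav1 genotype. The second crossed both genes and had a control (LIN9 wt, Sav1 wt), LIN9 KO (Sav1 wt), Sav1 KO (LIN9 wt) and double KO ventricles. Each of the 6 groups had 3 libraries, which gives 18 in all. The labels call LIN9 wt wild-type, while the paper names this genotype Lin9 fl/+, so that LIN9 wt groups, controls included, are heterozygous for the floxed allele. Cells outside the Nkx2.5 lineage keep both genes, and whole ventricles hold all cell types of the tissue. Total counts per library lay between 9485599 and 9615274 in the first experiment and between 2770741 and 2999877 in the second, where 1 count stands for 0.341 CPM, the count scaled to the size of the library, against 0.104 CPM in the first. The labels do not say whether libraries of a group came from separate embryos or litters. The paper's methods speak of RNA isolated in triplicates, and a legend on LIN9 KO and LIN9 wt ventricles speaks of biological replicates that were each done in triplicate. The 3 libraries of a group may thus not be separate biological replicates, and p-values measure only the spread between these libraries.

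Of the targeted genes, Lin9 was counted at 29.8, 21.4 and 25.6 CPM in the LIN9 wt and at 21.4, 21.3 and 19.2 CPM in the LIN9 KO libraries of the first experiment. In the second experiment it stood at 29.3, 28.1 and 23.2 CPM in controls, 13.1, 15.4 and 17.9 CPM in LIN9 KO, 19.2, 31.4 and 25.6 CPM in Sav1 KO and 23.5, 26.1 and 18.5 CPM in double KO. Lin9 was thus lower in each LIN9 KO library than in each control or LIN9 wt library of its experiment, while double KO and Sav1 KO libraries overlapped, and the closest pair of the first experiment, LIN9 wt replicate 2 and LIN9 KO replicate 1, were nearly equal. These are counts over the whole gene, and the floxed allele loses only a part of it. By the quasi-likelihood test of edgeR (Benjamini-Hochberg adjusted), Lin9 fell by 0.80 on the log2 scale in LIN9 KO against control (3 of 3 libraries lower, adjusted p = 0.00270). The log2 fold change was -0.31 in the first experiment (adjusted p = 0.130), and -0.16 in double KO against Sav1 KO (adjusted p = 0.586), both short of the threshold of 0.05. In double KO, Lin9 had log2 fold changes of -0.24 against control (adjusted p = 0.385, overlapping groups) and 0.56 against LIN9 KO (adjusted p = 0.238, 3 of 3 libraries higher). Below, libraries without LIN9 are those labelled LIN9 KO or double KO, whatever their Lin9 counts. Sav1 in the first experiment was at 54.3, 51.5 and 55.3 CPM in LIN9 wt and 52.0, 49.9 and 43.0 CPM in LIN9 KO. In the second, Sav1 was at 54.5, 56.2 and 61.9 CPM in controls and 51.9, 49.9 and 47.3 CPM in LIN9 KO, against 43.1, 36.1 and 43.0 CPM in Sav1 KO and 44.0, 40.5 and 42.3 CPM in double KO, so that all 6 libraries of the last 2 groups lay below all 6 of the others. Its log2 fold change was -0.50 for Sav1 KO against control (edgeR adjusted p = 0.318), -0.23 for double KO against LIN9 KO (adjusted p = 0.464) and -0.44 for double KO against control, where alone it passed the threshold (adjusted p = 0.00873, 3 of 3 libraries lower, and 0.0534 without control replicate 3). Exons of Sav1 share 28.1% of their bases with genes annotated over them, and reads of whichever origin in that stretch cannot be told apart in these tables.

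The tissue named in the labels was checked on its markers before the results. The ventricular genes Myh7, Myl2 and Myl3 were among the counted cardiomyocyte markers, as was Tnnt2, whose troponin T the paper uses to identify cardiomyocytes. Tnnc1 was listed at 0 in all 18 libraries. The 7 of 8 such genes with counts summed to 19184 to 22192 CPM in the 9 libraries with LIN9 and 8803 to 12147 CPM in the 9 without. Erythroid markers set libraries apart: 7 of 8 had counts, and their sum was 62765, 33028 and 24041 CPM in the LIN9 KO libraries of the first experiment, where replicate 1 stood well above the others, against 6289.6, 4634 and 4297 CPM in LIN9 wt. In the second experiment this sum was 2874, 2246 and 2376 CPM in controls, 14483, 20772 and 26609 CPM in LIN9 KO, 1867, 1679 and 2264 CPM in Sav1 KO and 20272, 12807 and 6946 CPM in double KO. Hbb-y, an embryonic beta-globin, was the most abundant of these genes, and Alas2 was listed at 0 throughout. Libraries without LIN9 were thus high in erythroid RNA in every case, and their part in the results on the contractile genes was not tested. Without these genes in the fit, a choice made after seeing the data, each contractile gene kept its side of the threshold in every comparison. Since this fit drops only the listed genes, it does not test the part of erythroid cells.

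Per length, the contractile genes spanned several orders of magnitude, and Myl9 and Acta2 led. In LIN9 wt ventricles of the first experiment (n = 3, mean ± SD), Myl9 stood at 751 RPKM ± 76.4 (RPKM is CPM per kilobase of exon), Acta2 at 439.9 RPKM ± 34.6, Tagln at 143 RPKM ± 16.7 and Cnn1 at 104 RPKM ± 9.98. Smtn followed at 22.2 RPKM ± 1.19, Cald1 at 17.3 RPKM ± 0.915, Mylk at 2.01 RPKM ± 0.0546 and Myh11 at 0.183 RPKM ± 0.00633. This order held in each of the 9 libraries with LIN9, across both experiments and with or without Sav1. In the 9 libraries without LIN9, Cald1 stood above Smtn. Which of these genes stands higher depends on the exonic lengths used. In CPM, Cald1 (mean 208 CPM) stood above Smtn (97.3 CPM) in LIN9 wt of the first experiment too. In replicate 3 of the LIN9 KO libraries of the first experiment Tagln also stood above Acta2. In that group the mean of Tagln was 376 RPKM ± 81.0 and that of Acta2 458 RPKM ± 34.8, so that these means lay only a little further apart than the larger SD, and the libraries of these neighbours overlapped. In control ventricles of the second experiment Tagln (129.7 RPKM ± 7.15) and Cnn1 (95.4 RPKM ± 5.40), as well as Smtn (25.0 RPKM ± 2.03) and Cald1 (20.7 RPKM ± 1.73), stood further apart than their SD. The 8 genes together took between 0.252% and 0.364% of a library's counts.

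**Figure D1:**
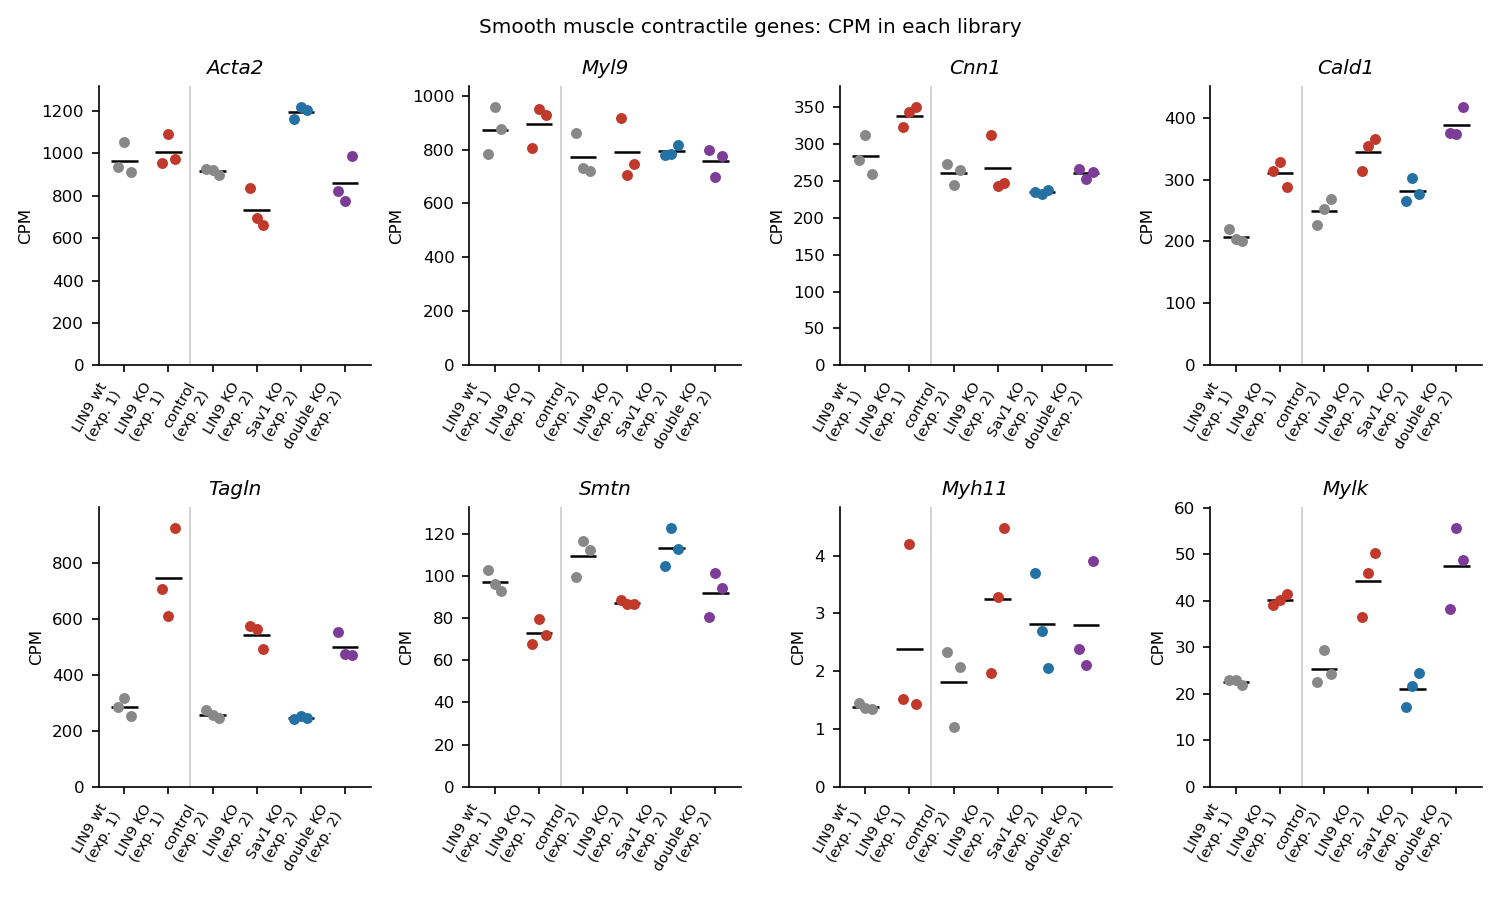
CPM of each contractile gene in each library, with 1 point per library, a line at the mean of 3 libraries, and experiment 1 left of the grey line. Tagln, Cald1 and Mylk stand higher in all 9 libraries without LIN9 than in the LIN9 libraries of the same experiment, Smtn stands lower in 8 of the 9, and Acta2 stands highest in Sav1 KO.

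Acta2, which encodes the actin of the smooth muscle thin filament, was lower in LIN9 KO than in control and lower in double KO than in Sav1 KO, but passed the threshold neither in double KO against control nor in the first experiment. It was at 935, 1053 and 911 CPM in LIN9 wt and 953, 1094 and 972 CPM in LIN9 KO of the first experiment. The second experiment had it at 927, 922 and 897 CPM in controls and 835, 695 and 663 CPM in LIN9 KO, and at 1163, 1221 and 1204 CPM in Sav1 KO and 822, 776 and 987 CPM in double KO. The groups of the first experiment overlapped, whereas all LIN9 KO libraries of the second lay below all controls, each Sav1 KO library exceeded each control, and double KO libraries overlapped both controls and LIN9 KO. By the quasi-likelihood test of edgeR (Benjamini-Hochberg adjusted), Acta2 fell by 0.32 (SE 0.10, adjusted p = 0.0229) on the log2 scale in LIN9 KO against control and by 0.47 (SE 0.10, adjusted p = 0.00120) in double KO against Sav1 KO, in 3 of 3 libraries each. For double KO against control its log2 fold change was -0.087 (95% interval -0.29 to 0.12, adjusted p = 0.611), with replicate 3 of double KO above every control. In the first experiment it was 0.059 (95% interval -0.18 to 0.30, adjusted p = 0.800), and the difference between the experiments was not tested. The call in LIN9 KO against control was lost without control replicate 3 (adjusted p = 0.0565), LIN9 KO replicate 2 (0.0595) or LIN9 KO replicate 3 (0.0695), with log2 fold changes from -0.45 to -0.29 over the 6 libraries left out in turn.

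Myl9 encodes the light chain that the kinase phosphorylates, and it was the most abundant of the 8 genes per length and did not differ detectably in any comparison. It ranged from 782 to 959 CPM in LIN9 wt and from 805 to 951 CPM in LIN9 KO of the first experiment, and from 699 to 917 CPM over the 12 libraries of the second. Its groups overlapped in every comparison, with log2 fold changes from -0.070 to 0.044 for the 6 pairs of groups. Myh11, the smooth muscle myosin heavy chain and the gene most used to mark mature smooth muscle, was close to the limit of these tables. It had 14, 13 and 13 counts in LIN9 wt and 14, 40 and 14 counts in LIN9 KO of the first experiment. In the second experiment it had 7, 3 and 6 counts in controls, 6, 10 and 12 in LIN9 KO, 11, 8 and 6 in Sav1 KO and 7, 6 and 11 in double KO. Only replicate 2 of the first LIN9 KO group stood out, all groups overlapped, and no difference was detectable at this depth (log2 fold change 0.78, 95% interval -0.025 to 1.58, in the first experiment and 0.80, -0.11 to 1.72, in LIN9 KO against control). Without LIN9 KO replicate 2 the value of the first experiment was 0.090.

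Mylk, the gene of the kinase, was higher wherever LIN9 was missing. It stood at 23.1, 22.9 and 21.9 CPM in LIN9 wt and 39.0, 40.3 and 41.5 CPM in LIN9 KO of the first experiment. In the second experiment the values were 22.6, 29.5 and 24.2 CPM in controls, 36.5, 45.9 and 50.3 CPM in LIN9 KO, 17.2, 21.6 and 24.6 CPM in Sav1 KO and 38.2, 55.6 and 48.7 CPM in double KO. Each library without LIN9 lay above each LIN9 library of its experiment. By the quasi-likelihood test of edgeR (Benjamini-Hochberg adjusted), Mylk rose 1.78-fold in the first experiment (log2 0.83, SE 0.11, adjusted p = 6.90e-05), 1.74-fold in LIN9 KO against control (log2 0.80, SE 0.17, adjusted p = 6.90e-04) and 2.25-fold in double KO against Sav1 KO (log2 1.17, SE 0.17, adjusted p = 7.44e-06). The Mylk locus also encodes a long, non-muscle kinase and telokin, and counts per gene do not separate these products. Of its exon bases, 23.9% lie opposite antisense genes without an entry in the tables and 0.772% opposite a gene listed at 0, and the strand setting of the counting is not stated.

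Tagln, which encodes the actin-bundling protein transgelin, showed the largest change among the 8 genes in the first experiment, and its levels split by LIN9 in both. It was at 285, 318 and 251 CPM in LIN9 wt and 706, 609 and 924 CPM in LIN9 KO of the first experiment. Experiment 2 had it at 273, 255 and 245 CPM in controls, 574, 563 and 491 CPM in LIN9 KO, 241, 252 and 245 CPM in Sav1 KO and 551, 475 and 471 CPM in double KO. No library without LIN9 overlapped a library with it, and within each LIN9 state the Sav1 genotypes overlapped. By the quasi-likelihood test of edgeR (Benjamini-Hochberg adjusted), Tagln rose 2.62-fold in the first experiment (log2 1.39, SE 0.15, adjusted p = 2.28e-05, 3 of 3 libraries higher). In the second it rose in LIN9 KO against control (log2 1.07, SE 0.10, adjusted p = 3.97e-09), 2.03-fold in double KO against Sav1 KO (log2 1.02, SE 0.10, adjusted p = 1.02e-08) and 1.94-fold in double KO against control (log2 0.95, SE 0.10, adjusted p = 4.43e-08), each in 3 of 3 libraries. Part of the exons of Tagln, 5.43% of their bases, lies opposite Pcsk7, which had 310 to 406 counts in the first experiment and 92 to 147 in the second, and a further antisense gene without an entry in the tables covers 62.4%. The submitters' notes do not state the strand setting of the counting.

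Cald1, whose caldesmon blocks myosin on the actin filament in smooth muscle and also has a short form in other cells, followed the same split at a smaller size. It was at 220.4, 203 and 199.9 CPM in LIN9 wt and 313, 329 and 288 CPM in LIN9 KO of the first experiment. For the second experiment the levels were 227, 252 and 268 CPM in controls, 314, 355 and 365 CPM in LIN9 KO, 265, 302 and 277 CPM in Sav1 KO and 375, 373 and 418 CPM in double KO. Libraries without LIN9 lay above those with LIN9 in both experiments, and the double KO libraries were the highest of the second. Cald1 rose 1.49-fold in the first experiment by the quasi-likelihood test of edgeR (Benjamini-Hochberg adjusted) (log2 0.58, SE 0.11, adjusted p = 0.00117). For LIN9 KO against control the same test gave 1.38-fold (log2 0.47, SE 0.10, adjusted p = 8.04e-04), for double KO against Sav1 KO 1.38-fold (adjusted p = 7.85e-04) and for double KO against control 1.56-fold (log2 0.64, SE 0.10, adjusted p = 2.26e-05), each in 3 of 3 libraries.

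Smtn, which encodes the contractile-state protein smoothelin, went the other way. It was at 103, 96.3 and 92.6 CPM in LIN9 wt and 67.6, 79.5 and 71.8 CPM in LIN9 KO of the first experiment. In the second it was at 99.4, 116 and 112 CPM in controls, 88.4, 86.6 and 86.9 CPM in LIN9 KO, 105, 123 and 113 CPM in Sav1 KO and 80.4, 101 and 94.3 CPM in double KO. LIN9 KO libraries lay below LIN9 wt libraries or controls, and double KO libraries lay below Sav1 KO libraries, though 1 of them overlapped the controls. By the quasi-likelihood test of edgeR (Benjamini-Hochberg adjusted), Smtn fell by 0.42 on the log2 scale in the first experiment (SE 0.10, adjusted p = 0.00828), by 0.32 in LIN9 KO against control (SE 0.11, adjusted p = 0.0297) and by 0.30 in double KO against Sav1 KO (SE 0.11, adjusted p = 0.0442), in 3 of 3 libraries each. With DESeq2 the latter pair missed the threshold (adjusted p = 0.0567 and 0.0921). The calls were also lost without single libraries, while the direction stayed the same. Over all alternatives the log2 fold change lay between -0.48 and -0.36 in the first experiment. It lay between -0.41 and -0.31 in LIN9 KO against control, and between -0.40 and -0.24 in double KO against Sav1 KO. In the first experiment the adjusted p was 0.0580 without LIN9 wt replicate 1 and 0.0526 without LIN9 KO replicate 1. In LIN9 KO against control it was 0.0766 without control replicate 2 and 0.0982 without control replicate 3. For double KO against Sav1 KO it was 0.175 and 0.0985 without Sav1 KO replicates 2 and 3, and 0.134 and 0.0578 without double KO replicates 1 and 3.

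Cnn1 encodes calponin, an inhibitor of the myosin motor on actin. It was at 279, 313 and 259 CPM in LIN9 wt and 323, 343 and 351 CPM in LIN9 KO of the first experiment, where the groups did not overlap. The second experiment had it at 273, 245 and 265 CPM in controls, 312, 243 and 248 CPM in LIN9 KO, 235, 232 and 238 CPM in Sav1 KO and 266, 253 and 261 CPM in double KO. Here LIN9 KO libraries overlapped the controls, Sav1 KO libraries lay a little below them, and double KO libraries lay above Sav1 KO and among the controls. No comparison of Cnn1 passed the threshold in the main fit by edgeR's quasi-likelihood test, with log2 fold changes of 0.26 in the first experiment (adjusted p = 0.121), -0.15 for Sav1 KO against control (adjusted p = 0.999) and 0.15 for double KO against Sav1 KO (adjusted p = 0.312). A fit with replicate numbers as blocks called Cnn1 in the first experiment (edgeR adjusted p = 0.0404), where same-numbered libraries share only a number.

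Counted over the 8 genes, loss of LIN9 thus came with more RNA of Tagln, Cald1 and Mylk and less of Smtn. Acta2 was lower in LIN9 KO against control and in double KO against Sav1 KO. Smtn missed the threshold in double KO against control, where its log2 fold change was -0.25 (edgeR adjusted p = 0.108, overlapping groups). In the first experiment edgeR's test called 4 of the 8, 3 higher and 1 lower, where it called 20.9% of all genes tested, 11.1% higher and 9.78% lower. The median log2 fold change of the 8 genes was 0.42, against 0.016 over all genes. In LIN9 KO against control 5 of 8 passed, 3 higher and 2 lower, with 23.2% of all genes (12.8% higher, 10.5% lower), and the medians were 0.25 for the 8 genes and 0.0086. Without control replicate 3 this count was 3. In double KO against Sav1 KO, which asks for the effect of LIN9 where Sav1 is gone, the same 3 were higher and the same 2 lower, with 23.4% of all genes called (11.8% higher, 11.6% lower) and medians of 0.068 and 0.032. Against control, double KO had 3 of 8 higher and none lower (edgeR, 4 of 8 at an unadjusted p under 0.05, and 3 higher and none lower by DESeq2), with 20.6% of all genes called (10.7% higher, 9.96% lower) and medians of 0.30 and 0.034. With 8 genes chosen by name these counts are a description, and nothing particular to the list is read from them. The comparisons of the second experiment share groups and are not independent of each other. In bulk RNA, fewer cells of a type and less RNA per cell cannot be told apart, nor can more cells and more RNA.

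**Figure D2:**
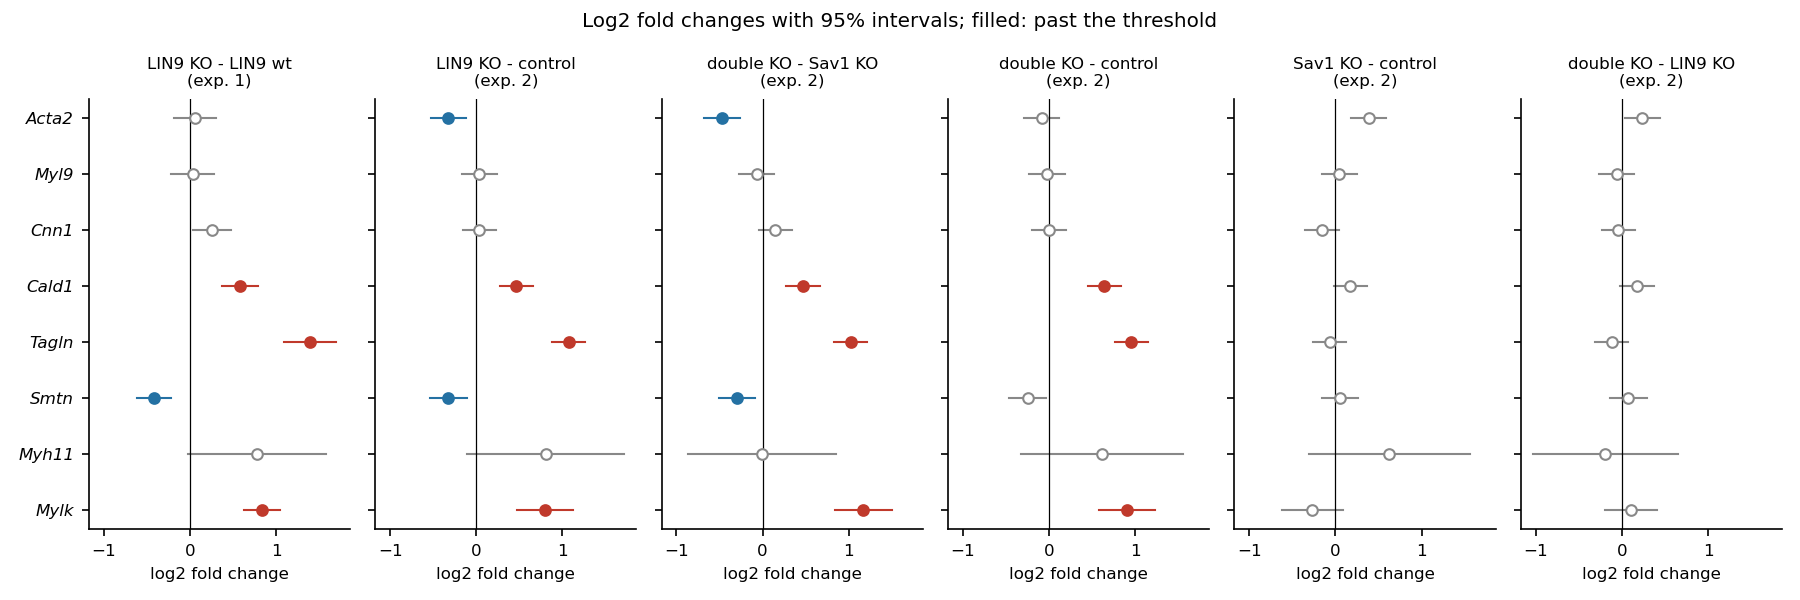
Log2 fold changes of the contractile genes with 95% intervals in 6 comparisons, with filled points past an adjusted p of 0.05 (red higher, blue lower). Tagln, Cald1 and Mylk lie right of 0 in the 4 comparisons that differ in LIN9, and no point is filled in the 2 that differ only in Sav1.

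None of the contractile genes passed the threshold on loss of Sav1. Sav1 KO libraries all lay above the controls for Acta2 and all below them for Cnn1, and the share of all genes that separate so was not counted. Acta2 was 1.31-fold higher on average. Against control, its log2 fold change was 0.39 (SE 0.10, unadjusted p = 9.04e-04), which missed the threshold after adjustment over 17675 genes by edgeR's quasi-likelihood test (adjusted p = 0.550). A fit on the 6 libraries of these genotypes alone gave the same log2 value with an adjusted p of 0.00214, and over all alternatives the adjusted p ran from 0.00214 to 1.00. The edgeR test called 0 of 8 genes in Sav1 KO against control, where 1 of 8 had an unadjusted p under 0.05 and DESeq2 called 0, and 0.017% of all genes were called (3 of 17675, with 693 at an unadjusted p under 0.05). The 8 genes had a median of 0.048, against 8.1e-05 over all genes. Double KO against LIN9 KO asks for the effect of Sav1 where LIN9 is gone, and here edgeR called 0 of 8, 1 of 8 had an unadjusted p under 0.05, DESeq2 called 0, and 0.0113% of all genes were called (2 of 17675, 2093 at an unadjusted p under 0.05, and 77 by DESeq2). Acta2 had a log2 fold change of 0.24 there (adjusted p = 0.371, with overlapping groups) and Cald1 of 0.17 (adjusted p = 0.499, 3 of 3 libraries higher), and the medians were 0.018 for the 8 genes and 9.3e-04 for all genes.

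Whether the effect of Sav1 differed with LIN9 was tested as the interaction, the difference between double KO and LIN9 KO less the difference between Sav1 KO and control. For Mylk this difference was 0.37 (95% interval -0.10 to 0.84, edgeR adjusted p = 0.835), for Acta2 -0.15 (-0.44 to 0.14, adjusted p = 0.907), for Tagln -0.053 (-0.32 to 0.22) and for Cald1 0.0011 (-0.27 to 0.28). The edgeR test called 0 of the 8 genes, 0 had an unadjusted p under 0.05 and DESeq2 called 0, and of all genes 0% were called (0 of 17675, 1156 at an unadjusted p under 0.05; DESeq2 called 0, with 524 at an unadjusted p under 0.05). The largest difference was that of Myh11, -0.82 (-2.08 to 0.44, adjusted p = 0.875), at few counts. The intervals for Myh11, Mylk, Acta2, Myl9 and Cnn1 reach as far as the Sav1 effect on Acta2, 0.39, so that differences as large were not detectable for every gene.

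The balance of these genes within a library split by LIN9 as well. The ratios were chosen after the levels had been seen, and they are a description. Transgelin RNA per alpha-actin RNA, the ratio of Tagln to Acta2 per length, lay between 0.305 and 0.337 in LIN9 wt and between 0.615 and 1.05 in LIN9 KO of the first experiment. In the second it lay between 0.302 and 0.325 in controls, 0.759 and 0.894 in LIN9 KO, 0.225 and 0.229 in Sav1 KO, and 0.527 and 0.740 in double KO. All 9 libraries without LIN9 were above all 9 with it, and the Sav1 KO libraries were the lowest of all. The ratio of Cald1 to Smtn lay between 0.767 and 0.786 in LIN9 wt and between 1.46 and 1.69 in LIN9 KO of the first experiment. Values of the second lay between 0.787 and 0.871 in controls, 1.29 and 1.53 in LIN9 KO, 0.894 and 0.919 in Sav1 KO, and 1.34 and 1.70 in double KO. It passed 1 in all libraries without LIN9, a side that depends on the exonic lengths used. That of Cald1 was 12041 bases over 18 transcripts, and 25.2% of the exon bases of Smtn are shared with a gene listed at 0. With only unshared bases as length, the lowest LIN9 KO library of the second experiment came to 0.965, still above the 0.688 that was the highest value with LIN9. Mylk to Smtn, the kinase gene against the smoothelin gene, lay between 0.0638 and 0.0984 with LIN9 and between 0.161 and 0.225 without, and both genes share exon bases with antisense genes.

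**Figure D3:**
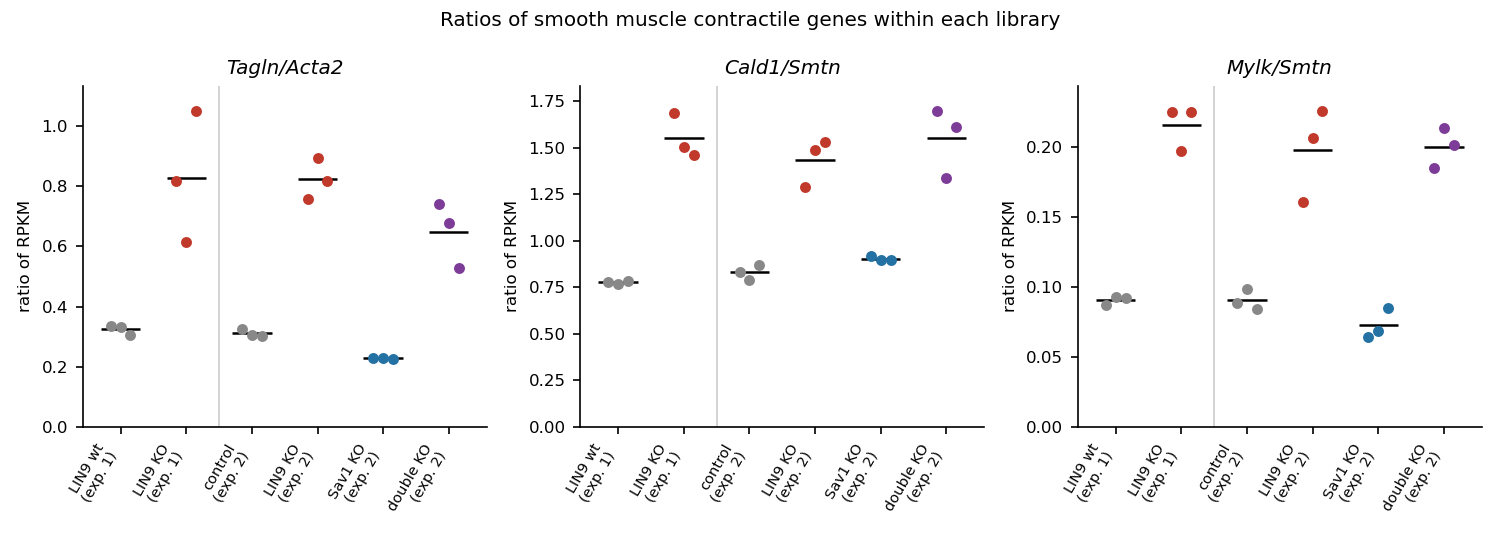
Ratios of RPKM within each library, with 1 point per library and a line at the mean of each group. Tagln to Acta2, Cald1 to Smtn and Mylk to Smtn are all higher in the 9 libraries without LIN9, and Tagln to Acta2 is lowest in Sav1 KO, between 0.225 and 0.229.

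Promoters are shown as a description, since smooth muscle genes have known regulators in common, while the 8 genes did not all move the same way. The CArG box, bound by SRF, with myocardin as its partner, drives many smooth muscle genes. The MCAT element is bound by the TEAD partners of the Hippo effector YAP, and the CHR element is bound by MuvB. RefSeq promoter windows (GRCm38.p6) were matched by symbol for 6 of the 8 genes, with a pair of windows for Cald1, and none for Tagln and Myh11. The 250 bases before each start were searched on both strands. A strict CArG box (CC, then any 6 of A or T, then GG) stood in 1 of the 7 windows, that of Myl9, 161 bases before the start, and 1.47% of 32851 windows hold one. A CArG box with 1 C or G inside, searched after the strict form, stood in Acta2 (84 and 34 bases before the start) and Myl9 (99 bases), and 7.24% of windows hold one. The MCAT core CATTCC stood in Acta2, the first window of Cald1, Smtn and Mylk, 4 of the 7 windows, against 12.6% of all. The CHR letters TTTGAA stood in 0 of the 7, against 16% of all. A match is a description, not a site or a cause. Bases annotated as untranslated exon are left out, except for Acta2, most of whose window carries such an annotation and of which only a short stretch around each CArG match is shown. All 221 bases shown for Mylk and all 219 for Smtn are annotated as intron of the same gene, so these windows precede starts inside the gene. Capitals mark the CArG boxes in the Acta2 stretches (chr19:34255438-34255467 and chr19:34255388-34255417, minus strand) and the Myl9 promoter (chr2:156775214-156775419, plus strand), and the MCAT core, or its complement GGAATG in Cald1, in the promoters of Mylk (chr16:34784700-34784920, plus strand), Cald1 (chr6:34598254-34598499, plus strand) and Smtn (chr11:3539324-3539542, minus strand).
Acta2, distal: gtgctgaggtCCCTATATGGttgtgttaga
Acta2, proximal: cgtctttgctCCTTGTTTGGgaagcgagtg
Myl9: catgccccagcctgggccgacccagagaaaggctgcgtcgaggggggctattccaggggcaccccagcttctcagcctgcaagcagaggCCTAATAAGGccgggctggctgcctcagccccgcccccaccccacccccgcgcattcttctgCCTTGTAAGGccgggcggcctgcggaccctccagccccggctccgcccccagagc
Mylk: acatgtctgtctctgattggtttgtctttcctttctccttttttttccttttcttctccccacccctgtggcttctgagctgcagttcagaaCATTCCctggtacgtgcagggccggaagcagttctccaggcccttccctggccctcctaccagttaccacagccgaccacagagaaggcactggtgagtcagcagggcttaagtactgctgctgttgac
Cald1: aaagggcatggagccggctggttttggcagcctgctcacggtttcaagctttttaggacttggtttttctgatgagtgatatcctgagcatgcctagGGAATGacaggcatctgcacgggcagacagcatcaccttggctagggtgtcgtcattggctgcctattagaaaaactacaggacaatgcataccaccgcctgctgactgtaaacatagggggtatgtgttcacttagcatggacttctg
Smtn: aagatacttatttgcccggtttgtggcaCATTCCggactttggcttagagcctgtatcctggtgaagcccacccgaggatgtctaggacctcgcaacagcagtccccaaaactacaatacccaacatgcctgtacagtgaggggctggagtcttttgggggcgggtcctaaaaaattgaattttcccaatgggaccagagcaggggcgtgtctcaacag

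Around the contractile genes, the coactivator myocardin fell where LIN9 was lost. Myocd was at 105, 92.3 and 103 CPM in LIN9 wt and 50.6, 48.1 and 38.0 CPM in LIN9 KO of the first experiment. In the second experiment the values were 123, 151 and 159.8 CPM in controls, 51.6, 66.3 and 63.8 CPM in LIN9 KO, 153, 159.7 and 165 CPM in Sav1 KO and 77.4, 79.9 and 67.6 CPM in double KO. Every library without LIN9 was below every library with it, whereas Tagln, Cald1 and Mylk were higher without LIN9 within each experiment. By the quasi-likelihood test of edgeR (Benjamini-Hochberg adjusted), Myocd fell by 1.14 on the log2 scale in the first experiment (adjusted p = 1.14e-05), by 1.26 in LIN9 KO against control (adjusted p = 5.73e-09) and by 1.09 in double KO against Sav1 KO (adjusted p = 5.90e-08), in 3 of 3 libraries each. Myocardin is also made by cardiomyocytes, whose markers fell in the same libraries, and their part in the fall of Myocd was not tested. Of 8 listed SRF and myocardin regulators 7 could be tested, and 2 fell in each of the 4 comparisons that differ in LIN9 while none rose, where 20.9%, 23.2%, 23.4% and 20.6% of all genes were called. The other was Fhl2, a LIM protein of the heart that binds SRF cofactors (log2 -0.60, -0.56, -0.68 and -0.49, in the order first experiment, LIN9 KO against control, double KO against Sav1 KO, double KO against control). In this order the medians of the list were -0.025, 0.26, -0.23 and -0.22, beside the medians over all genes given above. Srf itself was listed at 0 in all 18 libraries, so that these tables do not measure it.

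Among genes that set the phosphorylation of the light chain, 1 rose in all 4 comparisons that differ in LIN9. This was Ppp1r14a, which encodes the smooth muscle inhibitor CPI-17 of myosin phosphatase. It was at 6.90, 6.32 and 6.34 CPM in LIN9 wt and 15.3, 14.6 and 24.4 CPM in LIN9 KO of the first experiment. Experiment 2 had it at 6.98, 7.54 and 2.77 CPM in controls, 20.0, 19.7 and 15.7 CPM in LIN9 KO, 3.03, 6.75 and 6.48 CPM in Sav1 KO and 12.6, 14.8 and 12.8 CPM in double KO. As with Mylk, the groups with and without LIN9 did not overlap. It rose 2.77-fold in the first experiment (edgeR adjusted p = 1.35e-04), 3.19-fold in LIN9 KO against control (adjusted p = 3.71e-05) and 2.46-fold in double KO against Sav1 KO (adjusted p = 0.00137), in 3 of 3 libraries each. Ppp1r12b, a myosin-targeting subunit of the phosphatase, was at 62.3, 57.3 and 58.3 CPM in LIN9 wt and 34.7, 33.5 and 29.5 CPM in LIN9 KO of the first experiment, where it fell by 0.87 on the log2 scale (edgeR adjusted p = 4.36e-05, 3 of 3 libraries lower). Its log2 fold change was -0.33 in LIN9 KO against control (adjusted p = 0.0632). In double KO against Sav1 KO it fell by 0.37 (adjusted p = 0.0327, 3 of 3 libraries lower). That call was lost with DESeq2 and without Sav1 KO replicate 1 (adjusted p = 0.126), Sav1 KO replicate 3 (0.102) or double KO replicate 3 (0.176). The difference between the experiments was not tested. Of the 12 genes of myosin control, 1 rose and 1 fell in the first experiment, 1 rose in LIN9 KO against control, and 1 rose and 3 fell both in double KO against Sav1 KO and in double KO against control. In these comparisons 20.9%, 23.2%, 23.4% and 20.6% of all genes were called, and nothing particular to the list is read from its counts. The medians of the list were -0.034, -0.16, -0.14 and -0.17, and Ppp1cb, the catalytic subunit of the phosphatase, was the most abundant of them. The single call in LIN9 KO against control became 2 without control replicate 1, control replicate 3 or LIN9 KO replicate 3, and 3 without LIN9 KO replicate 1, and 3 also with replicate numbers as blocks, which pair these libraries. The 4 calls in double KO against Sav1 KO were 2 without double KO replicate 2, and the 4 in double KO against control were 2 without control replicate 3 or double KO replicate 2.

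Among 14 tested of 16 other smooth muscle cytoskeleton genes, 6 rose and none fell in the first experiment, 4 rose and 1 fell in LIN9 KO against control, 2 rose and 2 fell in double KO against Sav1 KO, and 3 rose and 1 fell in double KO against control, beside 20.9%, 23.2%, 23.4% and 20.6% of all genes called. The medians were 0.30, 0.18, 0.16 and 0.16, and Kcnmb1 and Synm were listed at 0. Actg2, the gamma-actin of gut and vessel smooth muscle, was scarce but showed the largest change, from 3.09, 2.00 and 2.81 CPM in LIN9 wt to 10.8, 11.0 and 22.4 CPM in LIN9 KO of the first experiment. For the second experiment the levels were 1.66, 1.37 and 2.77 CPM in controls, 11.2, 13.4 and 10.1 CPM in LIN9 KO, 3.37, 3.71 and 3.07 CPM in Sav1 KO and 11.6, 11.6 and 10.7 CPM in double KO, with no overlap between libraries with and without LIN9. It rose 5.59-fold, 5.91-fold and 3.31-fold in the first experiment, in LIN9 KO against control and in double KO against Sav1 KO (edgeR adjusted p = 4.24e-04, 5.30e-07 and 3.58e-05, 3 of 3 libraries each). Lmod1, the smooth muscle leiomodin that nucleates actin filaments, went from 2.06, 1.79 and 1.87 CPM to 5.20, 7.34 and 6.17 CPM in the first experiment and rose 3.26-fold (edgeR adjusted p = 1.25e-04, 3 of 3 libraries higher). In LIN9 KO against control it rose 2.88-fold (adjusted p = 0.0119, 3 of 3 libraries higher), a call lost without control replicate 2 or 3 (adjusted p up to 0.0875). It also rose 2.84-fold in double KO against control (adjusted p = 0.0154, 3 of 3 libraries higher), a call lost without control replicate 2 or 3 or double KO replicate 1 or 2 (adjusted p up to 0.0915). Its log2 fold change was 1.04 in double KO against Sav1 KO (adjusted p = 0.0699), where the groups overlapped. Tpm1, a tropomyosin of heart and smooth muscle and the most abundant gene of this list, was at 2768, 2501 and 2473 CPM in controls and 2082, 1776 and 1783 CPM in LIN9 KO, and at 2902, 2797 and 2898 CPM in Sav1 KO and 1816, 1830.0 and 1991 CPM in double KO. It fell by 0.46 on the log2 scale in LIN9 KO against control (edgeR adjusted p = 6.41e-04) and by 0.61 in double KO against Sav1 KO (adjusted p = 2.02e-05), in 3 of 3 libraries each, while the first experiment gave -0.39 (adjusted p = 0.0519), and the difference between the experiments was not tested. The 5 calls in LIN9 KO against control became 2 without control replicate 2 or 3, and 3 without LIN9 KO replicate 1 or 2.

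Paralogs of the 8 genes act in other cells, and Tagln2 and Actg1 were higher without LIN9. Of 17 listed, 13 could be tested: 6 rose and 1 fell in the first experiment, 4 rose and 1 fell in LIN9 KO against control, 3 rose and 1 fell in double KO against Sav1 KO, and 2 rose in double KO against control, beside 20.9%, 23.2%, 23.4% and 20.6% of all genes called, with medians of 0.38, 0.27, 0.13 and 0.036. Tagln2, the transgelin of non-muscle cells, was at 219.7, 265 and 217 CPM in LIN9 wt and 457, 421 and 583 CPM in LIN9 KO of the first experiment, and at 248, 234 and 211 CPM in controls, 450.3, 377 and 371 CPM in LIN9 KO, 217, 221 and 193 CPM in Sav1 KO and 332, 301 and 331 CPM in double KO. Like Tagln it was higher in each library without LIN9, and by edgeR's test it rose 2.08-fold, 1.73-fold and 1.53-fold in the first experiment, in LIN9 KO against control and in double KO against Sav1 KO (adjusted p = 7.52e-05, 1.24e-06 and 4.46e-05, 3 of 3 libraries each). The cytoplasmic actin Actg1 rose as well, with log2 fold changes of 0.68, 0.72 and 0.43. Mylk3, the light chain kinase of cardiomyocytes, went the other way from Mylk, with 305, 309 and 278 CPM in controls and 252, 207 and 235 CPM in LIN9 KO, and fell by 0.55 in the first experiment, by 0.36 in LIN9 KO against control and by 0.39 in double KO against Sav1 KO on the log2 scale (edgeR adjusted p = 0.00717, 0.00728 and 0.00397, 3 of 3 libraries lower each). Actc1, Acta1, Myl12a and Myl12b were listed at 0 in all 18 libraries although cardiac actin fills the heart muscle, so that a 0 in these tables is no measure of absence. The 7 calls of the first experiment were 4 without LIN9 wt replicate 1 or 3, and the 5 in LIN9 KO against control were 3 without control replicate 2, control replicate 3 or LIN9 KO replicate 1. The 2 in double KO against control were 4 without double KO replicate 1 and 1 without double KO replicate 3.

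**Figure D4:**
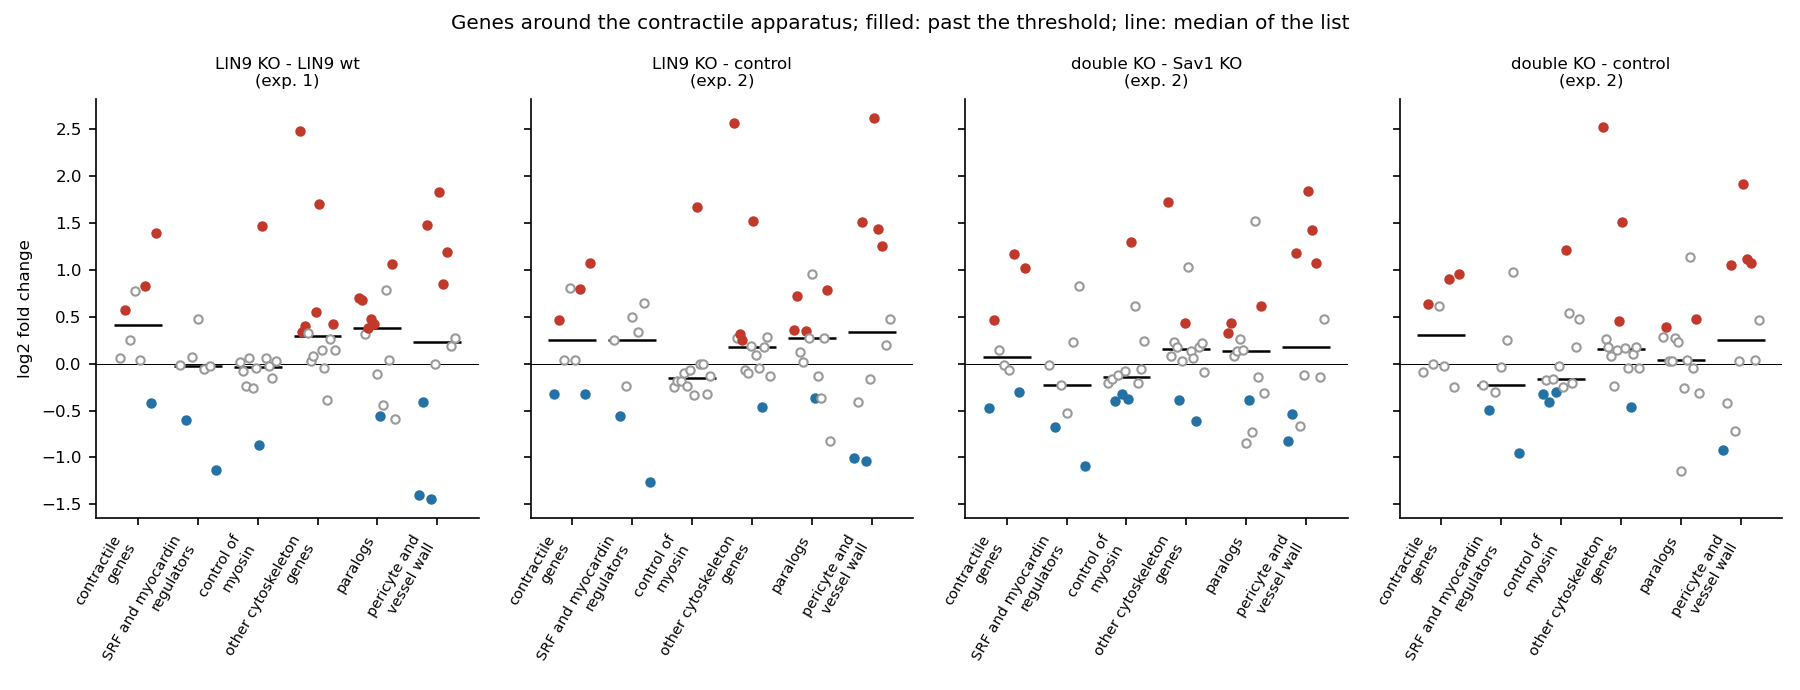
Log2 fold changes of each tested gene of the contractile genes and of 5 related lists in the 4 comparisons that differ in LIN9, with filled points past an adjusted p of 0.05 and a line at each list's median. Myocd and Fhl2 are the filled points of the regulators, at -1.14 and -0.60 in the first experiment, and Actg2 is the highest point of the cytoskeleton genes, at 2.48.

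Markers of pericytes and the vessel wall, where these genes are made in the mature heart, went both ways. Of 10 tested, 4 rose and 3 fell in the first experiment, 4 rose and 2 fell in LIN9 KO against control and in double KO against Sav1 KO, and 4 rose and 1 fell in double KO against control, beside 20.9%, 23.2%, 23.4% and 20.6% of all genes called, with medians of 0.23, 0.33, 0.18 and 0.25. The 4 that rose each time were the receptors Pdgfrb and Notch3, the connexin gene Gja4 and Ndufa4l2. Gja4 was at 23.5, 30.5 and 23.8 CPM in LIN9 wt and 71.2, 74.8 and 70.6 CPM in LIN9 KO of the first experiment, and at 25.9, 23.0 and 20.8 CPM in controls, 72.0, 60.7 and 66.0 CPM in LIN9 KO, 20.5, 21.6 and 21.8 CPM in Sav1 KO and 48.7, 42.6 and 53.4 CPM in double KO. Libraries with and without LIN9 did not overlap within either experiment. Its log2 fold changes were 1.48, 1.51, 1.18 and 1.05, and those of Ndufa4l2 1.83, 2.62, 1.84 and 1.91. Abcc9, a potassium channel subunit of pericytes and of cardiomyocytes, fell by 1.40 in the first experiment and by 1.00 in LIN9 KO against control. Kcnj8 had log2 fold changes of -1.45 and -1.04 in the same comparisons, and the second of these calls was lost in 4 of 13 alternatives. Cspg4 had -0.54 in double KO against Sav1 KO, a call lost in 1 of 13 alternatives. The summed level of the list was 765, 786 and 686 CPM in LIN9 wt and 788, 901 and 676 CPM in LIN9 KO of the first experiment. In the second it was 759, 748 and 759.5 CPM in controls, 965, 820.4 and 684 CPM in LIN9 KO, 819.8, 779 and 767 CPM in Sav1 KO and 716, 813 and 925 CPM in double KO, with overlap between libraries with and without LIN9. Mcam, its most abundant gene, had log2 fold changes from -0.16 to 0.024 in these 4 comparisons. None of the list was at 0, and its part in the change of the contractile genes was not tested.

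Epicardial and fibroblast markers were higher wherever LIN9 was lost, as Tagln, Cald1 and Mylk were. Of 8 epicardial genes, 7 rose in the first experiment, in LIN9 KO against control and in double KO against Sav1 KO and 6 in double KO against control, and none fell, beside the same shares of all genes called, with medians of 1.05, 1.14, 1.10 and 0.93. They summed to 331, 321 and 318 CPM in LIN9 wt and 606, 567 and 658 CPM in LIN9 KO of the first experiment. In the second they summed to 287, 288 and 292 CPM in controls, 541, 513 and 649 CPM in LIN9 KO, 238, 277 and 294 CPM in Sav1 KO and 511, 503 and 520.1 CPM in double KO. Upk3b was the most abundant, Tcf21, a transcription factor of the epicardium, rose 2.48-fold in the first experiment and Wt1, another, 2.60-fold in LIN9 KO against control. Of 9 fibroblast and cushion mesenchyme genes, 8, 8, 9 and 7 rose in these 4 comparisons and none fell, beside 11.1%, 12.8%, 11.8% and 10.7% of all genes higher. The medians of this list were 1.03, 0.82, 0.85 and 0.85. Their sum was 2640.0, 2404 and 2311 CPM in LIN9 wt and 4775, 5158 and 5095 CPM in LIN9 KO of the first experiment. In the second it was 3122, 3249.9 and 3030.2 CPM in controls, 6712, 6782 and 5363 CPM in LIN9 KO, 3152, 3527 and 2969 CPM in Sav1 KO and 5386, 6053 and 6920.4 CPM in double KO, with Col3a1 the most abundant. Pdgfra, a growth factor receptor of fibroblasts, rose 2.53-fold in the first experiment and the collagen gene Col1a1 2.69-fold in LIN9 KO against control. Libraries with and without LIN9 did not overlap in either sum. None of these markers was at 0, and their part in the rise of Tagln, Cald1 and Mylk was not tested.

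Cardiomyocyte markers were lower, as Smtn was. Of the 7 tested, 5 fell and none rose in each of the 4 comparisons that differ in LIN9, beside 9.78%, 10.5%, 11.6% and 9.96% of all genes lower, with medians of -0.92, -0.92, -1.02 and -0.99. Their sum was 19184, 19855 and 19685 CPM in LIN9 wt and 9298, 12147 and 8803 CPM in LIN9 KO of the first experiment. In the second it was 20970.5, 20298 and 20343 CPM in controls, 12057, 10668 and 9590.3 CPM in LIN9 KO, 22192, 21030.0 and 22009 CPM in Sav1 KO and 9866, 11225 and 12052 CPM in double KO, and Myh7, a ventricular myosin heavy chain at this age, was the most abundant. Libraries without LIN9 were below all libraries with it. Myl2, the ventricular light chain gene, fell by 1.48 on the log2 scale in the first experiment and by 1.65 in LIN9 KO against control. The part of these markers in the levels of the contractile genes was not tested. Erythroid genes rose in 7 of 7 tested in all 4 comparisons, beside 11.1%, 12.8%, 11.8% and 10.7% of all genes higher, with medians of 3.24, 2.87, 2.73 and 2.42. In the first experiment this count was 4 without LIN9 KO replicate 2.

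Macrophage markers were also higher without LIN9. Endothelial sums were higher in LIN9 KO than in controls and in double KO than in Sav1 KO, without overlap, while they overlapped in the first experiment and between double KO and control. Atrial sums overlapped in all 4 comparisons. In the order above, macrophage genes rose in 7, 6, 7 and 6 of 8 and none fell, beside 11.1%, 12.8%, 11.8% and 10.7% of all genes higher. Their medians were 1.03, 0.97, 1.44 and 1.15, and they summed to 117, 119.6 and 125 CPM in LIN9 wt against 226, 223 and 238 CPM in LIN9 KO of the first experiment. In the second their sum was 124, 134 and 124 CPM in controls, 258, 229.9 and 234 CPM in LIN9 KO, 105, 102 and 121 CPM in Sav1 KO and 254, 274 and 284 CPM in double KO, with Lyz2 the most abundant. Endothelial and endocardial genes rose in 3, 3, 5 and 3 of 8 and fell in 0, 1, 1 and 1, beside 20.9%, 23.2%, 23.4% and 20.6% of all genes called, with medians of 0.23, 0.19, 0.42 and 0.22. Their sums were 1208, 1322 and 1041 CPM in LIN9 wt and 1233, 1619.8 and 1238 CPM in LIN9 KO of the first experiment, and 1148 to 1199.8 CPM in controls, 1253 to 1413 CPM in LIN9 KO, 1021 to 1098 CPM in Sav1 KO and 1157 to 1359 CPM in double KO, with Pecam1 or Npr3 the most abundant. None of these markers was at 0, and their part in the results was not tested. Of 6 atrial genes, edgeR called 0 in the first experiment and in double KO against control (1 of 6 at an unadjusted p under 0.05 in each, and 1 by DESeq2), beside 20.9% and 20.6% of all genes. In LIN9 KO against control and in double KO against Sav1 KO 1 rose, beside 23.2% and 23.4% of all genes called. These atrial counts of 0 and 1 turned into each other without single libraries: 1 for 0 without LIN9 wt replicate 2 or LIN9 KO replicates 1 or 2 of the first experiment and, in double KO against control, without control replicate 1 or double KO replicate 1. It was 0 for 1 without control replicates 2 or 3, Sav1 KO replicates 1 or 2, or double KO replicate 2. The most abundant atrial gene was Myl4, and the 6 summed to 2272 to 3437 CPM over all 18 libraries. The 4 endothelial calls in double KO against control were 2 without double KO replicate 2. With Sav1 as the difference, edgeR called 0 of the 109 tested genes of all these lists in Sav1 KO against control (5 at an unadjusted p under 0.05, 0 by DESeq2) and 0 of 109 in double KO against LIN9 KO (20 at an unadjusted p under 0.05, 2 by DESeq2). With 0.017% and 0.0113% of all genes called in these comparisons, nothing particular to the lists is read from these counts.

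**Figure D5:**
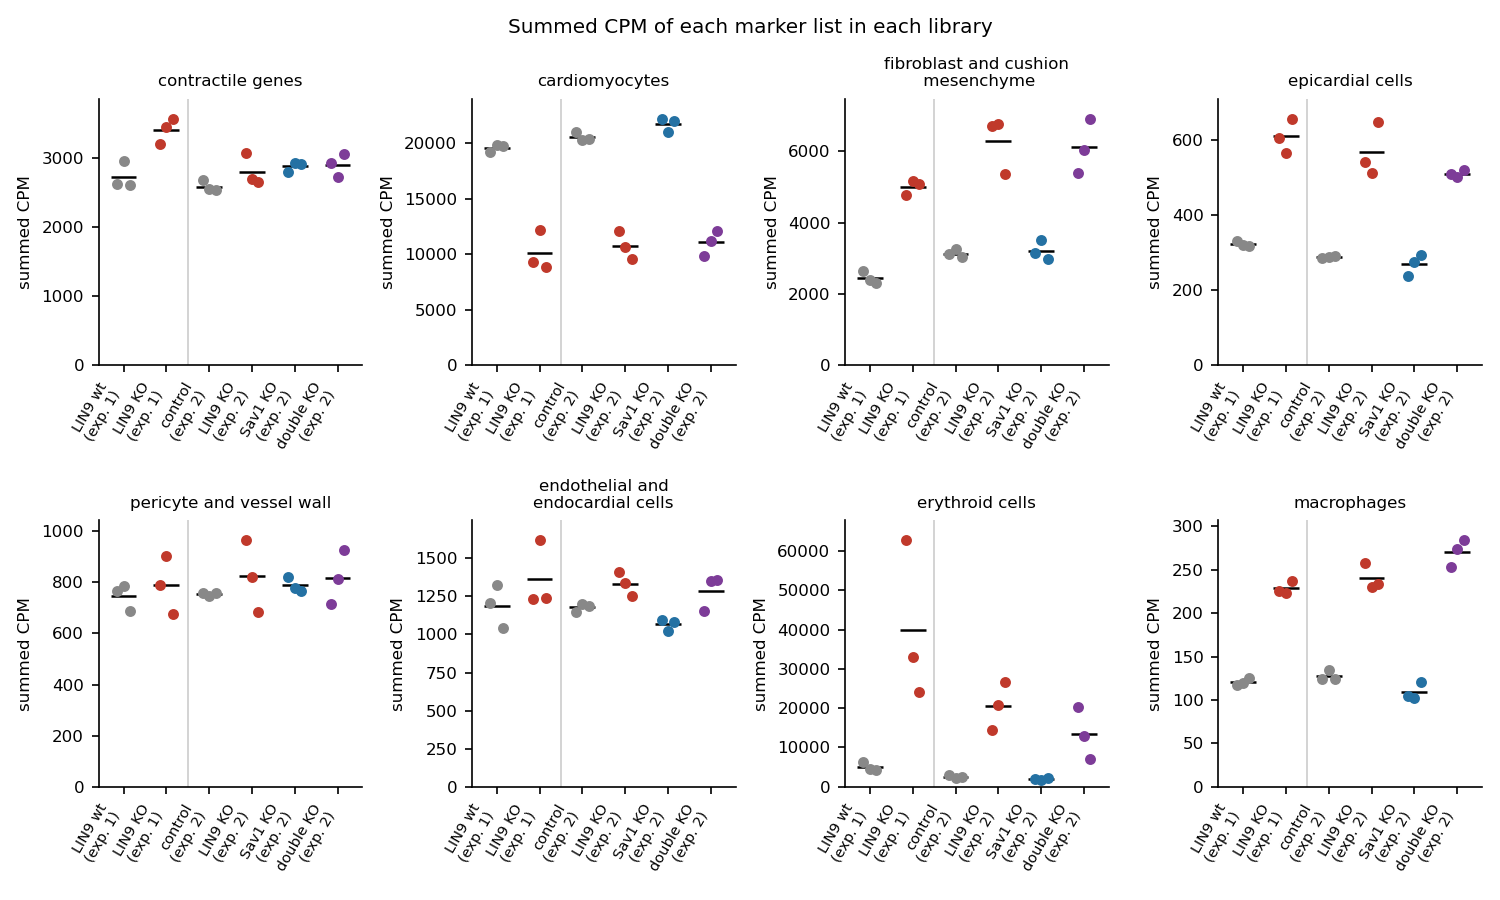
Summed CPM of the contractile genes and of 7 marker lists in each library, with 1 point per library, a line at the mean of 3 and every axis from 0. Erythroid, fibroblast, epicardial and macrophage sums are higher and the cardiomyocyte sum is lower in all 9 libraries without LIN9, while pericyte sums overlap. Endothelial sums do not overlap in LIN9 KO against control or in double KO against Sav1 KO, and overlap in the first experiment.

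The profile of the 8 genes over the 18 libraries was compared with that of other genes as a description. Each gene's log2 CPM was centred on its experiment and scaled, and the distance of each gene to the mean profile of the 8 was taken, where the median over 12110 genes was 1.45. Of the 8 genes themselves, Cald1 (0.731), Cnn1 (0.760) and Tagln (0.760) lay closest to this mean, Acta2 (1.34) and Smtn (1.76) farthest, and since the 8 genes make up the mean, their distances cannot be set against that median. Outside the 8, the nearest were Tuba1a, an alpha-tubulin gene (0.441), Copg1, a subunit of the coat of Golgi vesicles (0.456), Maged1 (0.470), Serpinh1, the collagen chaperone (0.471) and Frmd5 (0.505). In the first experiment the log2 fold change was 0.42 for Tuba1a, 0.37 for Copg1, 0.45 for Maged1, 0.46 for Serpinh1 and 0.41 for Frmd5, and in LIN9 KO against control 0.12, 0.21, 0.25, 0.28 and 0.39. By edgeR's test all but Frmd5 passed the threshold in the first experiment (adjusted p from 0.0198 to 0.0588), and only Serpinh1 (0.0432) and Frmd5 (0.0321) in LIN9 KO against control. None passed in double KO against Sav1 KO, where Frmd5 was at -0.022 (adjusted p = 0.924).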

How the data were processed

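Whole-number read counts per Ensembl gene were used as the authors deposited them, 1 count table per experiment. According to the submitters' processing notes, reads were mapped with TopHat2 2.1.0 and Bowtie2 to mm10, samples were brought to the depth of the smallest one, and reads per gene (GRCm38.p6) were counted with summarizeOverlaps. The authors' deposited tables of log2 fold changes, log2 CPM, p-values and FDR from edgeR were not used, and ChIP-seq was not analysed here. Of 48713 lines per table, 4 were repeats with identical counts and were kept once.

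After TMM scaling, the quasi-likelihood test of edgeR with robust estimates was run (R 4.3.3, edgeR 4.0.16, limma 3.58.1) on genes with a mean count above 1, with 1 fit per experiment and 1 mean per group, adjusted by the Benjamini-Hochberg method over all genes tested at a threshold of 0.05. The interaction used the same fit. DESeq2 1.42.0, no filter, edgeR's own filter, other scalings, a fit with replicate numbers as blocks, fits on 6 libraries and leaving out each library were the alternatives, and leaving out erythroid genes was added after seeing the data. RPKM used exonic lengths of GENCODE M21 on GRCm38. Figures were drawn with matplotlib 3.10.9.

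The lists were SRF and myocardin regulators, myosin control, other smooth muscle cytoskeleton genes, paralogs, and markers of pericytes and vessel wall, epicardial, fibroblast, endothelial, cardiomyocyte, atrial, erythroid and macrophage cells. The 8 genes and these lists were chosen with earlier results of these data known. Named are the 8 genes in every comparison, Lin9 and Sav1, of each list the called genes with the 2 highest and 2 lowest log2 fold changes or the most abundant, and the 5 nearest profiles. Of these genes some are given by counts alone, and Actg1 in the first experiment, Srf and the genes listed at 0 were named after their values were seen. Same-numbered libraries were checked for shared deviations from their group means, which had to correlate above 0.1 in every pair of libraries over genes of at least 5 CPM. This held for LIN9 KO and control (0.257 to 0.637) and for Sav1 KO and control (0.102 to 0.330), a pairing that rests on these values alone. Over all genes tested it held for neither (0.0891 to 0.393 and 0.0193 to 0.143).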

Additional observations from a re-analysis of the deposited data

How the results depend on the processing

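Tagln, Cald1 and Mylk kept direction and call in all alternatives of the 4 comparisons that differ in LIN9, and the calls of Smtn and Acta2 were lost where named beside the results. The number of contractile genes called was 4 to 5 over fits that leave out no single library and 3 to 4 without 1 library in the first experiment, 4 to 5 and 3 to 5 in LIN9 KO against control (3 without control replicate 3), and 4 to 5 both ways in double KO against Sav1 KO. It was 3 throughout in double KO against control. The fit on 6 libraries called 1 of 8 in Sav1 KO against control (Acta2). The cause was not tested.

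Directions turned for small, uncalled effects. With edgeR's own filter, Myh11 came to 0.0018 in double KO against Sav1 KO and Cnn1 to 0.0048 in double KO against control. Leaving out 1 library at a time, log2 fold changes crossed 0 as follows. In the first experiment, Acta2 from -0.0056 to 0.12, Myl9 from -0.038 to 0.11. In LIN9 KO against control, Cnn1 from -0.11 to 0.067, Myl9 from -0.10 to 0.10. In double KO against Sav1 KO, Lin9 from -0.33 to 0.019, Myh11 from -0.34 to 0.23, Sav1 from -0.028 to 0.10. In double KO against control, Cnn1 from -0.066 to 0.031, Myl9 from -0.10 to 0.061. In Sav1 KO against control, Lin9 from -0.27 to 0.074, Myl9 from -0.010 to 0.13, Smtn from -0.016 to 0.095. In double KO against LIN9 KO, Cnn1 from -0.10 to 0.090, Myh11 from -0.49 to 0.085, Myl9 from -0.12 to 0.064, Mylk from -0.024 to 0.23, Smtn from -8.1e-04 to 0.16. In the interaction, Cald1 from -0.055 to 0.079, Myl9 from -0.17 to 0.030, Smtn from -0.042 to 0.11, Tagln from -0.13 to 0.0061.

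Counts over all genes moved most where few were called. In Sav1 KO against control 3 genes became 22 without the filter and 31 with 6 libraries, and 0 to 2 without 1 library. In double KO against LIN9 KO 2 became 77 with DESeq2, 309 without the filter, 0 with edgeR's own filter or 6 libraries, and 0 to 378 without 1 library. The interaction went from 0 to 17 without the filter and 0 to 64 without 1 library. The first experiment went from 4131 to between 2722 and 4223 without 1 library, and to between 3495 and 5001 over the other alternatives. The cause was not tested.

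With replicate numbers as blocks, where LIN9 KO or Sav1 KO is compared with control, no contractile gene changed its call, and myosin control genes called in LIN9 KO against control went from 1 to 3. Elsewhere same-numbered libraries did not correlate above 0.1 in every pair (lowest correlations 0.0576 in the first experiment, where 4 of 6 libraries correlated best with their own number, and -0.104, -0.0662 and -0.101 in the comparisons with double KO). There the block called Cnn1 in the first experiment (log2 0.26, adjusted p = 0.0404, against 0.0404 to 0.363 over all alternatives) and 84 genes against 2 in double KO against LIN9 KO.

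Depth limits Myh11 most, with 3 to 40 counts per library. Small differences, within the 95% intervals given, were not detectable. Well-known heart genes listed at 0 leave it unknown how complete the tables are, and the strand setting is not stated.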
